A study of Homo sapiens with 3 samples.

Results

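The BCL2 family of apoptosis regulators was followed on 3 Affymetrix expression arrays of T47D, a long-established human breast carcinoma line with estrogen and progesterone receptors. The family was taken as 10 named genes, each read through every probe set whose only gene symbol is that gene's. Of the 10, 9 had such probe sets, 28 in all out of 41097 probe sets with 1 gene symbol, and they are 9 of 19775 genes measured in this way. BBC3, the BH3-only gene also called PUMA, is the exception, because its probe set here also carries the symbols of microRNA genes, and it has no value below. The T47D cells spent 4 h in medium with 10% charcoal-stripped serum and were then given 0.1% ethanol as vehicle, 1 uM estradiol (the natural estrogen receptor ligand) or 1 uM of the receptor modulator tamoxifen, a breast cancer drug, for 3 h. The stripped medium was shared by all 3 groups, and each group was 1 culture of a single cell line on 1 array.

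The proteins of this family decide whether the outer mitochondrial membrane is opened in apoptosis. BAX and BAK1 form the pore through which cytochrome c escapes, and BCL2, BCL2L1 (BCL-XL) and MCL1 hold them in check. BH3-only proteins carry a short helix that occupies the groove of the protective members or activates the pore formers directly, and several of them, PMAIP1 (NOXA) and BBC3 in particular, are known to be controlled mainly through transcription. In breast epithelium BCL2 and BCL2L1 are known as survival genes, while BIK and BCL2L11 (BIM) have been tied to the death of hormone-deprived or kinase-inhibited breast cancer cells.

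The promoter letters of 3 members are shown because their windows hold a motif of a transcription factor family measured on the same arrays, and because the gene medians of all 3 were lower on both treated arrays than with vehicle. Each sequence is the 250 bases before the RefSeq transcription start in GRCh38.p14, on the plus strand, printed 5′ to 3′. They lie at chr18:59899746-59899995 for PMAIP1, chr19:48954625-48954874 for BAX and chr2:111120664-111120913 for BCL2L11. Capitals mark the core of a cyclic AMP response element (TGACGT on either strand) in PMAIP1, each E-box (CACGTG) in BAX and a forkhead site (GTAAACA) in BCL2L11.
PMAIP1: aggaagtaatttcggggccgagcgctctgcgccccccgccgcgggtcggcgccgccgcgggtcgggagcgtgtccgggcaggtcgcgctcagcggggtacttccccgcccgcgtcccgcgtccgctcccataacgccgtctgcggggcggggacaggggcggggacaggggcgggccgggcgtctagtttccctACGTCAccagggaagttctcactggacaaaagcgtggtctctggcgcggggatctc
BAX: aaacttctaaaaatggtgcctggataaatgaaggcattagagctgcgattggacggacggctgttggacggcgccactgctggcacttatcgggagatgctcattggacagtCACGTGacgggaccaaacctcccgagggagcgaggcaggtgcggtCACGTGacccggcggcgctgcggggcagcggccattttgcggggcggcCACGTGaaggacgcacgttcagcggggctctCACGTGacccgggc
BCL2L11: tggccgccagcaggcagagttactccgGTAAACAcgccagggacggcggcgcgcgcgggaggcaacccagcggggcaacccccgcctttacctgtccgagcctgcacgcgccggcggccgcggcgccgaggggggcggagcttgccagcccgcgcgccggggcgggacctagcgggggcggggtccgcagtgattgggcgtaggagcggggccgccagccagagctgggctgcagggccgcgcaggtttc

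Of the 10 named genes, 8 had a window in the promoter table, with 10 windows in all, and 8 motifs were searched on both strands. The cyclic AMP response element core, which factors of the ATF and CREB family bind, occurred once in the PMAIP1 window, 56 to 51 bases before the start, and in no other window of the family. The same core is present in 7.10% of all 35116 windows of that length. PMAIP1 also held 4 GC boxes (GGGCGG, in 42.6% of windows) and 1 match to a loose NF-kB pattern (GGG, any 3 bases, then TTCC, in 5.67%). BAX held 4 E-boxes, the letters bound by MYC and related factors, whereas 6.34% of windows hold any, and 5 windows (0.0142%) hold at least 4. That limit of 4 was set after the BAX window was seen. The forkhead site of BCL2L11 lies 223 to 217 bases before the start and is found in 2.98% of windows. The estrogen response unit AGGTCA (12.1% of windows) was matched once, in 1 of the 2 windows of BMF. The AP-1 site TGANTCA (6.57%) was matched in BBC3, as was a single E-box, and the C/EBP-ATF composite TGATGNAAT (0.888%) in none of the 10 windows. BCL2 and both windows of BCL2L1 matched none of the 8 motifs. In the printed windows no 2 of these motifs overlapped. A match describes letters and is not evidence of a bound site.

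The deposited values are log2 expression centred on an unrecorded reference for each probe set, so they give no levels, and genes cannot be compared in abundance. Differences between arrays are kept. All differences below are log2 values per probe set or, for a gene, the median over its probe sets, after subtraction of the median difference of all genes, which was -0.0057 when vehicle was taken from estradiol, 0.10 when it was taken from tamoxifen and 0.11 when estradiol was taken from tamoxifen. Values on single arrays are as deposited. RNA came from whole cultures, in which fewer cells with a transcript and less of it per cell cannot be told apart. With 1 array per group there was no replicate check, no test and no SD between samples, and the number of arrays limits every value. The yardstick used below is the disagreement between probe sets of the same gene, whose pooled SD over all genes was 0.45, 0.51 and 0.27 in the same order. This spread holds no variation between arrays or cultures. It can also include differences between transcripts of a gene, so it is not a full measure of technical error. The vehicle array also stands apart in its control probe sets. The median of 18S ribosomal RNA was 1.86 and 1.96 higher on the estradiol and tamoxifen arrays, and the ACTB signal at the 3′ end less that at the 5′ end was -0.78 and -0.77 relative to vehicle, against 0.043 and 0.0058 between the treated arrays. The 24 probe sets of bacterial spike transcripts had medians of 0.70 and 0.49 against vehicle and differed between the treated arrays too, from -1.92 to -0.023 with a median of -0.15. The part of these differences in the values of the family was not tested. Both comparisons with vehicle share that array, and tamoxifen minus estradiol is the comparison without it. Of the estrogen-responsive genes read to check the treatment, PGR (1.48 and 1.07) and GREB1 (0.93 and 0.46) were above vehicle with estradiol and tamoxifen. TFF1 (-2.17 and -2.85) was below vehicle with both. Against vehicle the genes thus had no common direction and give no clear check of the treatment. Between the treated arrays all 3 were lower with tamoxifen than with estradiol. PGR read -0.41, GREB1 -0.74 and TFF1 -0.69, at percentiles 3.81, 0.511 and 0.662 of all genes. Luminal identity could not be checked, as values without levels cannot show presence or absence.

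PMAIP1, which neutralises MCL1, stood out from the rest of the family. Relative to vehicle its gene value was 2.38-fold lower with estradiol (1.31-fold and 4.33-fold in its 2 probe sets). With tamoxifen it was 3.68-fold lower (2.10-fold and 6.46-fold). PMAIP1 was the only one of the 9 measured members at least 2-fold different in any comparison. Over all genes, 1.68% were at least 2-fold lower with estradiol and 1.79% with tamoxifen. The pore-forming genes BAK1 and BAX and the BH3-only gene BIK were also below 0 in both comparisons, but by less than 2-fold. The protective genes BCL2 and MCL1 read near 0, and BCL2L1 gave opposite signs in different probe sets.

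**Figure D1:**
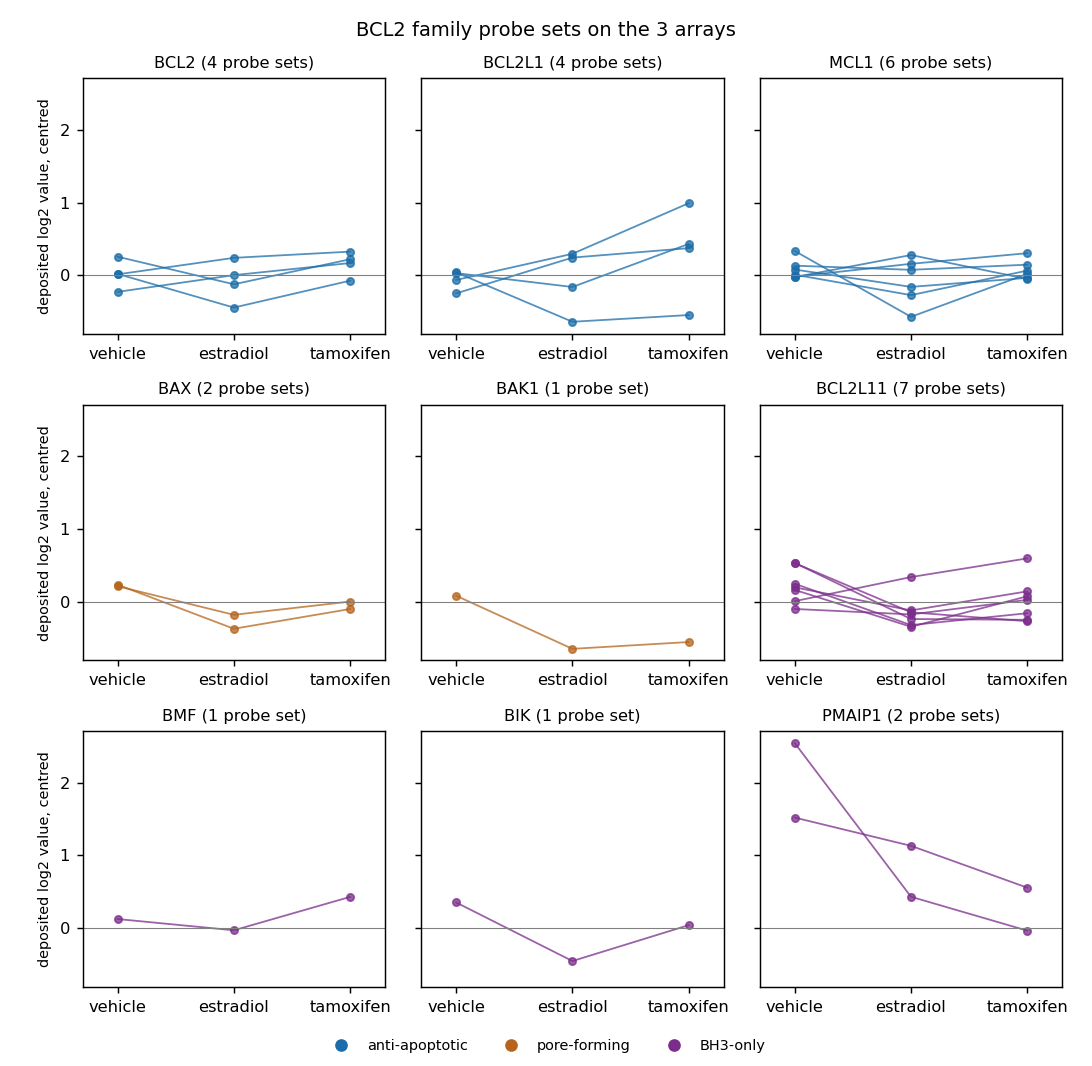
Deposited log2 values (y axis, centred per probe set) on the vehicle, estradiol and tamoxifen arrays (x axis), 1 panel per gene and 1 line per probe set, with colours for the anti-apoptotic, pore-forming and BH3-only members. The 2 probe sets of PMAIP1 start at 1.52 and 2.55 on the vehicle array, above every other value of the family.

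Among the BH3-only genes, the probe set 204286_s_at of PMAIP1 read 2.55 with vehicle, 0.43 with estradiol and -0.037 with tamoxifen. The second, 204285_s_at, read 1.52, 1.13 and 0.56. Both were highest with vehicle and lowest with tamoxifen, but the size of the step to estradiol was very different. The differences of estradiol from vehicle were -2.11 and -0.38, and those of tamoxifen from vehicle -2.69 and -1.07. This spread between the 2 probe sets, 1.73 and 1.62, was at least as wide as in 98.7% and 97.3% of the 5015 genes with 2 probe sets, whose median spread was 0.33 and 0.37. Both probe sets of PMAIP1 were thus below vehicle on both treated arrays, and the size of the difference rests mostly on 204286_s_at. With estradiol, the -0.38 of 204285_s_at was smaller than the pooled spread between probe sets of 0.45, so there only 204286_s_at exceeded that spread. As the median of both, PMAIP1 had values of -1.25 and -1.88, the 109th and 23rd lowest of 19775 genes. Both probe sets carry the suffix _s_at, which marks probes that can match more than 1 transcript.

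The vehicle readings themselves were unusual. Among all 54675 probe sets, the values of 204286_s_at and 204285_s_at ranked 10th and 34th from the top of the vehicle array. Because the centre is unknown, this gives the distance of the vehicle culture from that centre and not an abundance.

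Between the treated arrays, PMAIP1 was 1.56-fold lower with tamoxifen than with estradiol, with differences of -0.58 and -0.69 in the 2 probe sets. Here the probe sets lay 0.11 apart, less than the median spread of 0.22. The gene value of -0.64 was the 182nd lowest of 19775 genes, and 0.202% of genes were at least 2-fold lower in this comparison. The order of vehicle, estradiol and tamoxifen from high to low was therefore the same in both probe sets, and its lower step did not involve the vehicle array.

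BIK, a BH3-only protein of the endoplasmic reticulum, had 1 probe set. It read 0.35 with vehicle, -0.46 with estradiol and 0.040 with tamoxifen, so the estradiol array was lowest and the tamoxifen array lay between. The differences were -0.80 for estradiol and -0.42 for tamoxifen against vehicle, at percentiles 4.05 and 15.3 of all genes. Tamoxifen exceeded estradiol by 0.38 (1.30-fold, percentile 95.7), the opposite of PMAIP1.

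BMF, which senses detachment and cytoskeletal stress, also had a single probe set, at 0.12, -0.031 and 0.43 on the vehicle, estradiol and tamoxifen arrays. Its largest difference was between the treated arrays, at 0.35 (percentile 94.3). Against vehicle it read -0.15 with estradiol and 0.20 with tamoxifen, both smaller than the pooled spread between probe sets. BIK and BMF have no second probe set against which these values can be set.

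BCL2L11 encodes BIM, an activator of BAX and BAK1 that is made in several splice forms, and its 7 probe sets were the most numerous of the family. On the vehicle array they ranged from -0.10 to 0.53. The gene value was -0.50 for estradiol minus vehicle (percentile 11.3), with 6 probe sets below 0 and 1 above. The lowest, 1553096_s_at at -0.77, read 0.53, -0.24 and -0.25 on the vehicle, estradiol and tamoxifen arrays, while 1558143_a_at at 0.34 read 0.0049, 0.34 and 0.60. These 2 probe sets of the gene ran in opposite directions on both treated arrays. For tamoxifen minus vehicle the gene value was -0.19, with 5 probe sets below 0 and 2 above, from -0.91 to 0.49. Such a range, 1.39, was near the median of 1.36 for the 171 genes with 7 probe sets. Between the treated arrays the gene read 0.086.

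Of the pore formers, BAK1 has 1 probe set, which read 0.081 with vehicle, -0.65 with estradiol and -0.56 with tamoxifen. Both treated arrays lay well below vehicle, by -0.73 and -0.74 (1.66-fold and 1.67-fold lower, percentiles 5.34 and 4.91). They differed from each other by -0.021, or 0.094 before the all-gene median was subtracted, so that difference has no stable sign.

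BAX, the cytosolic counterpart of BAK1, gave like readings in both of its probe sets. 208478_s_at read 0.21, -0.18 and -0.00021 on the vehicle, estradiol and tamoxifen arrays, and 211833_s_at read 0.23, -0.38 and -0.10. Estradiol was lowest in both and vehicle highest. The differences from vehicle were -0.39 and -0.60 for estradiol and -0.31 and -0.44 for tamoxifen, with gene values of -0.50 and -0.38 at percentiles 11.7 and 17.2. Tamoxifen minus estradiol gave 0.11, smaller than the pooled spread between probe sets.

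**Figure D2:**
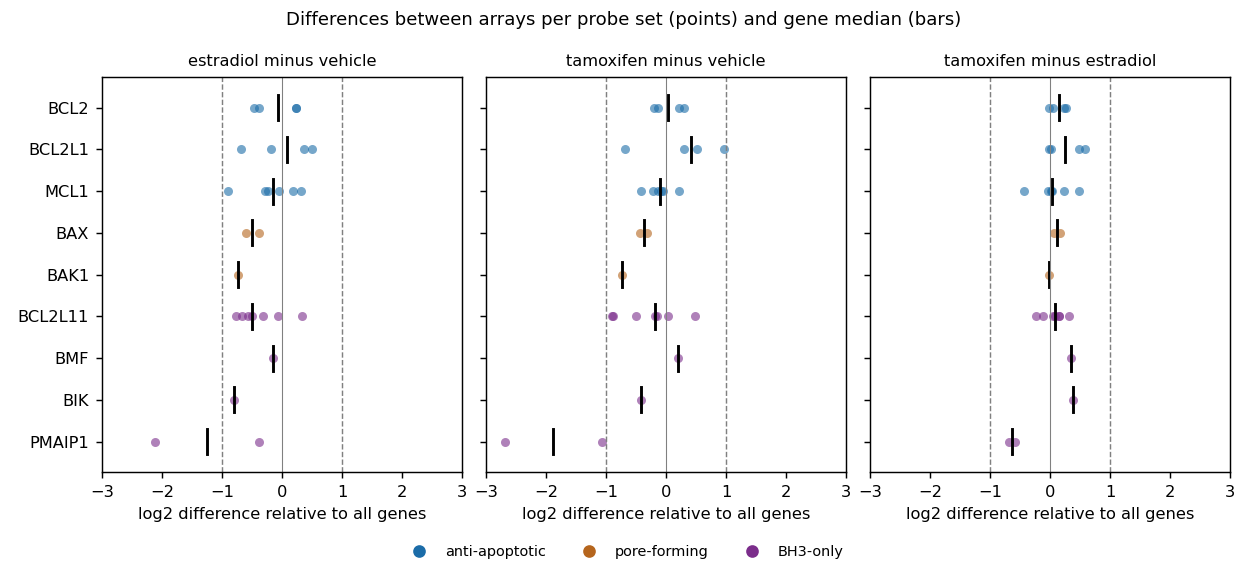
Log2 differences relative to the all-gene median (x axis) for each member (y axis) in the 3 comparisons, with points for probe sets, black bars for the gene median and dashed lines at a 2-fold difference. PMAIP1 at -1.25 and -1.88 is the only bar beyond a dashed line, and the BCL2L1 points lie on both sides of 0.

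Of the protective members, BCL2L1 had 4 probe sets that disagreed more than those of most genes. 215037_s_at read -0.067, 0.29 and 0.99 on the vehicle, estradiol and tamoxifen arrays, and 206665_s_at read -0.25, 0.24 and 0.37. In contrast, 212312_at read 0.037, -0.64 and -0.55, and 231228_at read 0.027, -0.16 and 0.43. The first pair was higher on both treated arrays than on the vehicle array, 212312_at was lower on both, and 231228_at was lower with estradiol and higher with tamoxifen. For tamoxifen minus vehicle the probe sets spanned -0.69 to 0.96, a range of 1.65 that exceeded those of 86.9% of the 1393 genes with 4 probe sets. The gene values of 0.090 for estradiol and 0.41 for tamoxifen against vehicle became -0.44 and -0.20 without the 2 _s_at probe sets, so the gene has no settled direction. The annotated record of 206665_s_at is the transcript of the short isoform BCL-XS, which promotes death instead of survival, but its suffix marks probes that can match other transcripts too. Between the treated arrays, 3 of 4 probe sets were higher with tamoxifen, by up to 0.58 for 215037_s_at, and the fourth read -0.022, with a gene value of 0.25 (percentile 88.1).

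The 4 probe sets of BCL2, the founding survival gene of the family and a known estrogen target in breast cancer, did not all run the same way against vehicle. 207004_at and 207005_s_at are both annotated to the transcript of the beta isoform, which lacks the membrane anchor, and 203685_at to that of the alpha isoform. The beta pair read 0.25 and 0.016 with vehicle, -0.13 and -0.45 with estradiol and 0.22 and -0.077 with tamoxifen. 203685_at read 0.0099, 0.24 and 0.32, and 203684_s_at read -0.23, -0.00098 and 0.17. On the estradiol array the beta pair was thus below vehicle (-0.37 and -0.46) and the other pair above it (0.23 and 0.24). For tamoxifen the corresponding differences were -0.14, -0.20, 0.21 and 0.29. All 8 are below 2-fold, and the range over the probe sets, 0.70 and 0.49, was below the median of genes with 4 probe sets (0.75 and 0.85). A difference between isoforms was not tested, and the suffix of 203684_s_at and 207005_s_at marks probes that can match more than 1 transcript. The gene values were -0.071 and 0.036 against vehicle and 0.14 between the treated arrays. The largest of these 3 medians corresponds to 1.10-fold.

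MCL1, a short-lived protective protein that PMAIP1 binds, had 6 probe sets centred near 0. The gene values were -0.14, -0.11 and 0.020 in the order of the comparisons above. The widest single difference was that of 214056_at, which read 0.33 with vehicle, -0.58 with estradiol and 0.016 with tamoxifen, a difference of -0.90 for estradiol. The other 5 probe sets differed from vehicle by -0.28 to 0.31 on the estradiol array. Between the treated arrays 214056_at was higher with tamoxifen (0.48) and 227175_at lower (-0.45), which places 2 probe sets of the gene at nearly the same distance on either side of 0.

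**Figure D3:**
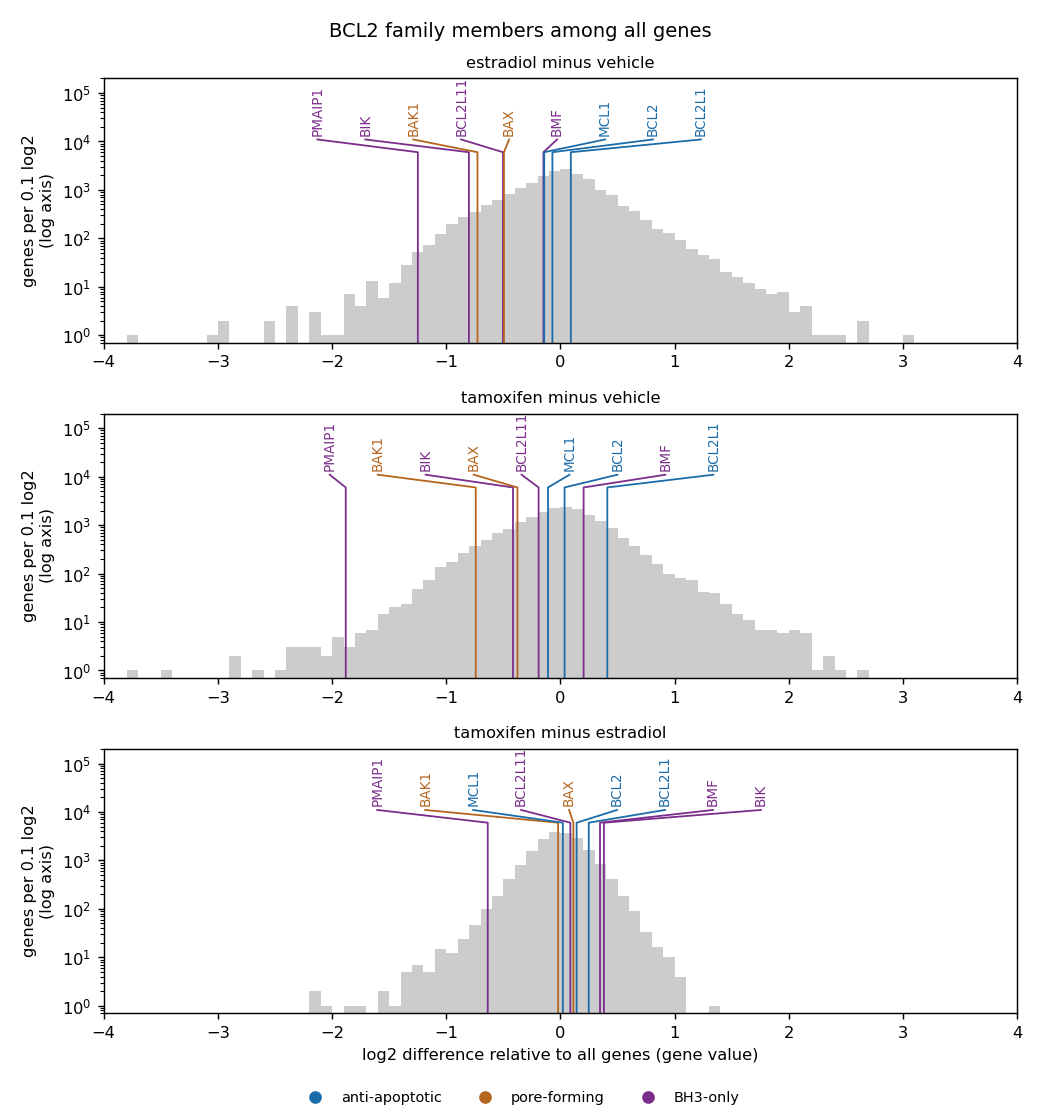
Histograms of gene values (x axis, log2 difference relative to the all-gene median, y axis, genes per 0.1 on a log axis) for all 19775 genes, with a coloured line for each of the 9 measured members in the 3 comparisons. PMAIP1 lies in the lower tail of each panel, at percentiles 0.551, 0.116 and 0.920, and the other members lie between percentiles 4.05 and 95.7.

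Set in order, the members from lowest to highest in estradiol minus vehicle were PMAIP1, BIK, BAK1, BCL2L11, BAX, BMF, MCL1, BCL2 and BCL2L1. In that comparison 8 of 9 lay below 0, with a median of -0.50 against 0 for all genes. PMAIP1 lay 0.45 below BIK, about the pooled spread between probe sets, and BIK, BAK1, BCL2L11 and BAX differed among themselves by less than it. For tamoxifen minus vehicle the order was PMAIP1, BAK1, BIK, BAX, BCL2L11, MCL1, BCL2, BMF and BCL2L1, with 6 of 9 below 0 and a median of -0.19. There PMAIP1 lay 1.14 below BAK1, and no other step between neighbours exceeded the pooled spread. Between the treated arrays 7 of 9 lay above 0, with a median of 0.11, and PMAIP1 and BAK1 were the 2 below. At the level of probe sets, 1 of 28 was at least 2-fold lower with estradiol (2.33% of all probe sets were) and 2 of 28 with tamoxifen (2.62%), all of PMAIP1. None of the 28 was at least 2-fold higher with estradiol or tamoxifen than with vehicle (3.9% and 4.29% of all probe sets) or with tamoxifen than with estradiol (0.134%). Before the all-gene median was subtracted, 215037_s_at of BCL2L1 was 1.06 higher with tamoxifen than with vehicle and 204285_s_at of PMAIP1 -0.97, so that 1 probe set was past 2-fold on each side. Likewise none of the 9 genes was at least 2-fold higher, against 1.62%, 1.65% and 0.0253% of all genes. A difference smaller than 0.5 was seen in 18 of 28 (64.3%) and 19 of 28 (67.9%), against 74.2% and 71.9% of all probe sets.

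Beyond the members, 77 genes of the same pathways were listed and 71 were measured. The lists were pathway knowledge written down with earlier results of these arrays in view. Past 2-fold with estradiol were 2 of the 71 above vehicle and 4 below, and with tamoxifen 2 above and 5 below. That is 8.45% and 9.86% in either direction, against 3.31% and 3.43% of all genes. All but FAS were on the list of transcription factors and their partners, and none belonged to the mitochondrial machinery.

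Transcription factors known to act on BH3-only genes had a median of -0.70 with estradiol and -0.67 with tamoxifen against vehicle, with 10 of 11 below 0 in each. DDIT3 (CHOP), a stress factor linked to induction of BCL2L11, was 7.55-fold and 7.16-fold lower through 1 probe set. JUN, an AP-1 subunit, was 3.10-fold and 2.79-fold lower over 4 probe sets that all read below 0. TRIB3, a pseudokinase of the same stress pathway, read -1.21 and -1.03, and EGR1, an early growth response factor, -0.91 and -1.18. ATF4, which binds composite and cyclic AMP response elements and is known to act on PMAIP1, read -1.13 in both. It too had 1 probe set, and it is named here after its values were seen. FOXO1 and FOXO3, named for the forkhead site above, were below 2-fold. FOXO1 read -0.42 and -0.29, and FOXO3 read -0.57 and -0.65. The exception was MYC, which was 4.54-fold higher with estradiol and 2.21-fold higher with tamoxifen through 1 probe set. Between the treated arrays MYC, at 2.06-fold lower with tamoxifen, was the only listed gene past 2-fold, at -1.04, or -0.93 before the all-gene median was subtracted. DDIT3, JUN, TRIB3, EGR1 and ATF4 differed between the treated arrays by 0.071, 0.023, 0.18, 0.14 and -0.011. Any part of these factors or of MYC in the values of the family was not tested.

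**Figure D4:**
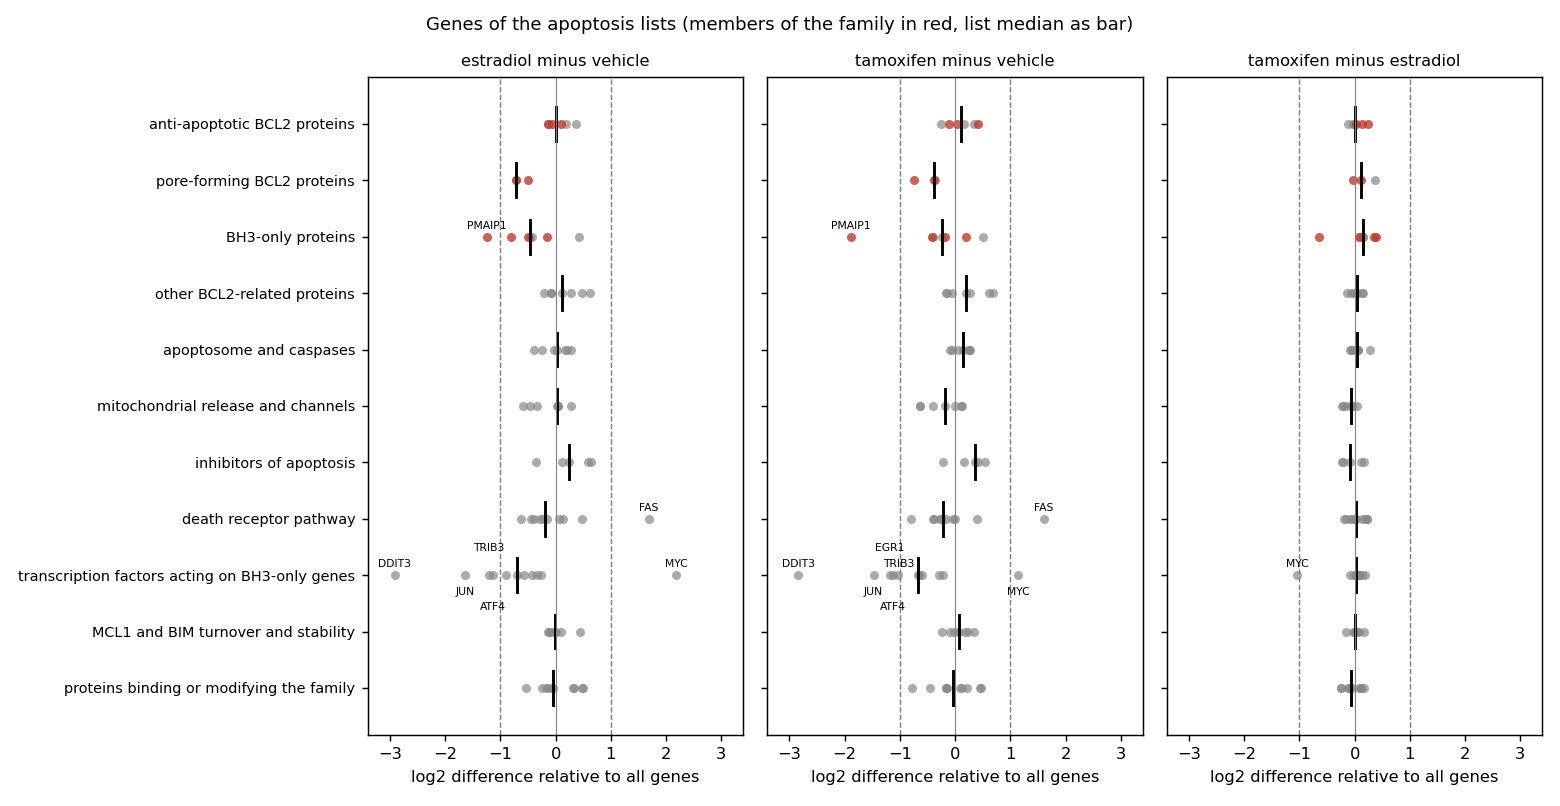
Gene values (x axis, log2 difference relative to the all-gene median) of 11 lists of apoptosis genes (y axis) in the 3 comparisons, with red points for the BCL2 family members, grey points for other genes, bars for list medians and dashed lines at a 2-fold difference. Points past 2-fold are named and lie mainly among the transcription factors, from DDIT3 at -2.92 to MYC at 2.18 in the first panel.

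The wider family, in which PMAIP1 was the only gene past 2-fold, is given by role. All 3 pore formers lay below 0 against vehicle, with medians of -0.73 and -0.38, including BOK, a BAX relative, at -0.73 and -0.36. The 2 probe sets of BOK read -1.19 and -0.26 with estradiol and -0.82 and 0.11 with tamoxifen, on both sides of 0 in the latter. For tamoxifen minus estradiol BOK read 0.36, with probe sets at 0.36 and 0.37. Of 7 measured BH3-only genes, 6 lay below 0 with estradiol and 5 with tamoxifen, with medians of -0.47 and -0.24. BID, which links death receptors to the mitochondrion, was above 0 in both, at 0.42 and 0.51 with 3 of 3 probe sets, and is named after its values were seen. The 6 protective genes had medians of 0.0098 and 0.10, with 3 and 4 above 0. Among related genes BNIP3L, a mitophagy receptor, had the highest value, at 0.63 and 0.68, over 2 probe sets that read -0.053 and 1.41 for tamoxifen, and BCL2L14 led between the treated arrays at 0.15.

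No gene measured among those that act after the membrane opens was past 2-fold. The 7 measured genes of the apoptosome and caspases had medians of 0.026 and 0.15 against vehicle, with DFFA, the inhibitor of the apoptotic nuclease, lowest at -0.39 with estradiol and the initiator caspase gene CASP9 at 0.28 between the treated arrays. Released factors and channels had medians of 0.031 and -0.18, with HTRA2, a mitochondrial protease, at -0.59 and -0.64 and VDAC3, an outer membrane channel, at -0.23 between the treated arrays. Of 5 inhibitors of apoptosis, 4 lay above 0 in both comparisons with vehicle, with medians of 0.25 and 0.36. BIRC6, a giant ubiquitin ligase, read 0.63 and 0.42, and BIRC2 was 0.23 lower with tamoxifen than with estradiol.

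In the death receptor pathway, FAS, the receptor of FAS ligand, was 3.22-fold and 3.04-fold higher than with vehicle, with 5 of 5 probe sets above 0 in each. The other 9 measured genes of that list were all below 2-fold, and the list median was -0.19 and -0.22. FAS and PMAIP1, both known p53 targets, thus lay at opposite ends of the distribution, at percentiles 99.8 and 0.551 with estradiol. Genes of MCL1 and BIM turnover had medians of -0.013 and 0.061, with USP9X, which removes ubiquitin from MCL1, at 0.45 and 0.34 and GSK3B, whose kinase marks MCL1 for destruction, at 0.16 between the treated arrays. Among proteins that bind or modify the family, DYNLL2, the dynein light chain that holds BMF at the cytoskeleton, was lowest at -0.53 and -0.78, and at -0.26 between the treated arrays.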

How the data were processed

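Total RNA of 3 T47D cultures was hybridised to 1 array each, and groups were taken from the treatment in the labels. The deposited log2 values come from RMA (robust multi-array averaging) run by the authors, as the submitters' processing notes record without a version. Values of both signs around 0 show that a centre per probe set was subtracted, a step no label records, so levels are lost and log base 2 is taken from RMA. RMA shrinks differences of dim probe sets, which cannot be identified here.

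Probe sets with 1 gene symbol (41097) were used and those with several (1801) left out. All 9 measured members matched a RefSeq gene table by Entrez identifier. Differences were computed with pandas 2.3.3, and a gene took the median of its probe sets. The calculation was also run on shuffled values with planted changes, which checks its arithmetic only and not the differences on these arrays. The cutoff for counting a gene was a log2 difference of 1 or more in size. The arrays carry no depth, and no filter on signal was possible. All members were named, as was every pathway gene past the cutoff up to 4 per list and comparison, and otherwise the most different gene of a list. The members and lists were chosen with earlier results of these data known. Alternatives were no centring, means over probe sets, no _s_at or _x_at probe sets, a 1.5-fold cutoff and quantile normalization.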

Additional observations from a re-analysis of the deposited data

How the results depend on the processing

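With 1 array per group no replicate could be left out. No paired analysis was possible because each group holds 1 array. PMAIP1 stayed at least 2-fold lower than vehicle in both comparisons without centring and after quantile normalization, where its values were -1.98 and -2.52. Averaging its probe sets could not change this, as the mean and median of 2 values are the same. Over all probe sets the deposited values had an SD of 0.19 with vehicle, 0.41 with estradiol and 0.44 with tamoxifen. Quantile normalization gives the 3 arrays 1 distribution and so widens the vehicle array. The larger sizes after it are therefore no added evidence of a difference. When _s_at and _x_at sets were omitted, PMAIP1 and BAX had no probe set left, so that 0 members were past 2-fold, and BCL2L1 took values of -0.44 and -0.20. BIK reached -1.10 for estradiol after quantile normalization, to which the same limit of a widened vehicle array applies. Signs near 0 changed for BAK1 between the treated arrays (0.094 without centring, 0.017 after quantile normalization) and for BCL2 with tamoxifen (-0.026 after quantile normalization).

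At 1.5-fold, 3 of the 9 measured members were lower with estradiol, 2 with tamoxifen and 1 with tamoxifen against estradiol. Of all 19775 genes, 1269 were then higher and 1728 lower with estradiol, 1255 and 1754 with tamoxifen, and 175 and 242 between the treated arrays. Of the 71 other pathway genes measured, 5 were higher and 9 lower with estradiol, and 4 and 12 with tamoxifen. Without centring, 217 genes were lower with tamoxifen than with vehicle, 428 higher, and 18 higher and 24 lower between the treated arrays, where 0 other pathway genes were lower. Among probe sets of members, 1 was then 2-fold higher with tamoxifen than with vehicle (BCL2L1, 1.06) and 1 lower (PMAIP1). The omission of _s_at and _x_at sets gave 0 other pathway genes higher with estradiol, 1 with tamoxifen and 0 lower between the treated arrays, where 8 of all genes were higher.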

Other observations

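Markers of other cell types were read on the same arrays. Of 6 fibroblast markers, 5 lay above 0 against vehicle in each comparison, with medians of 0.28 and 0.36. LUM, a matrix proteoglycan, was highest at 0.84 and 0.75, and COL1A1, a collagen chain, was lowest at -0.97 and -0.88. Of 5 measured lymphocyte markers, 2 lay above 0 with estradiol and 4 with tamoxifen, with medians of -0.10 and 0.37. None of these was past 2-fold. The 8 luminal markers had medians of 0.097 and 0.067, and PGR was the only one past 2-fold. Without levels, none of these differences shows that a cell type was present, and their part in the values of the BCL2 family was not tested.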
